A study of Mus musculus with 2 samples.

Results

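The genes described here are 37 genes of the smooth muscle contractile apparatus and cytoskeleton, measured in the wall of the mouse aorta. They were chosen by name, from the actins and myosins to the kinases, phosphatase subunits, anchoring proteins and transcription factors that serve them, and a probe was taken where its gene name in the array files was a member or an older synonym of one. That gave 78 probes of 41150 on the array, and all 37 genes were among the 21366 genes measured. The RNA came from C57Bl/6 mice, a common inbred laboratory strain, aged 16 weeks and carrying no transgene or treatment that the labels name. Aortas of 6 mice (3 males and 3 females) were perfused with Triton X-100, a detergent used here to strip the endothelium, and were cut into 2 segments. The arch segment, which is prone to atherosclerosis, ran from the root through the arch into the first 2 mm of the descending thoracic aorta, and the thoracic segment, which is resistant, was the 6 mm that followed. RNA extracts of each segment were pooled over the 6 mice, so that each region is 1 pool of unsorted wall, and both pools were hybridised together to 2 two-colour Agilent arrays. On array 1 the arch carried the red dye Cy5 and the thoracic aorta the green dye Cy3, and on array 2 the dyes were exchanged.

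Smooth muscle contracts when myosin heads pull on actin filaments, and the step is set by phosphorylation of the regulatory myosin light chain. A calcium-dependent kinase adds that phosphate, and a phosphatase held to myosin by a targeting subunit removes it. In the aortic media many of these genes are transcribed under serum response factor and its coactivator myocardin, and their transcripts are the usual markers of the contractile state, which is reduced in atherosclerosis.

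Each gene is given by its brightest usable probe, as the log2 of the arch signal divided by the thoracic signal. That value is the mean of the arrays, and ± gives how far each of them lies from it. A value below 0 means that the thoracic pool held more. Intensities are given after background correction, with an offset of 50 added, and after dye normalisation, and they are comparable between regions for 1 probe but not between genes. The arrays are a technical dye swap of 1 pool per region, so there is no biological replicate and no test, and ± covers the technical error only. Where both arch readings lie on 1 side of both thoracic readings, they are still readings of the same 2 pools. That also occurred at small ratios, such as that of Cnn3 (−0.06), and its share over all genes was not counted. Because the pools are whole tissue, fewer smooth muscle cells and less RNA per cell cannot be told apart. Spots had median signals between 87.1 and 97.1 intensity units over local backgrounds between 40 and 48, and 71.3% to 81.5% of gene spots were well above background in a channel. The members were bright: their median intensity was 2491, against 129 for all genes, and 35 of the 37 lay above that median. Brightness had a cost at the top of the range, since the brightest probes of Acta2, Tagln, Myl6 and Myl9 were saturated in the red channel of both arrays.

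**Figure D1:**
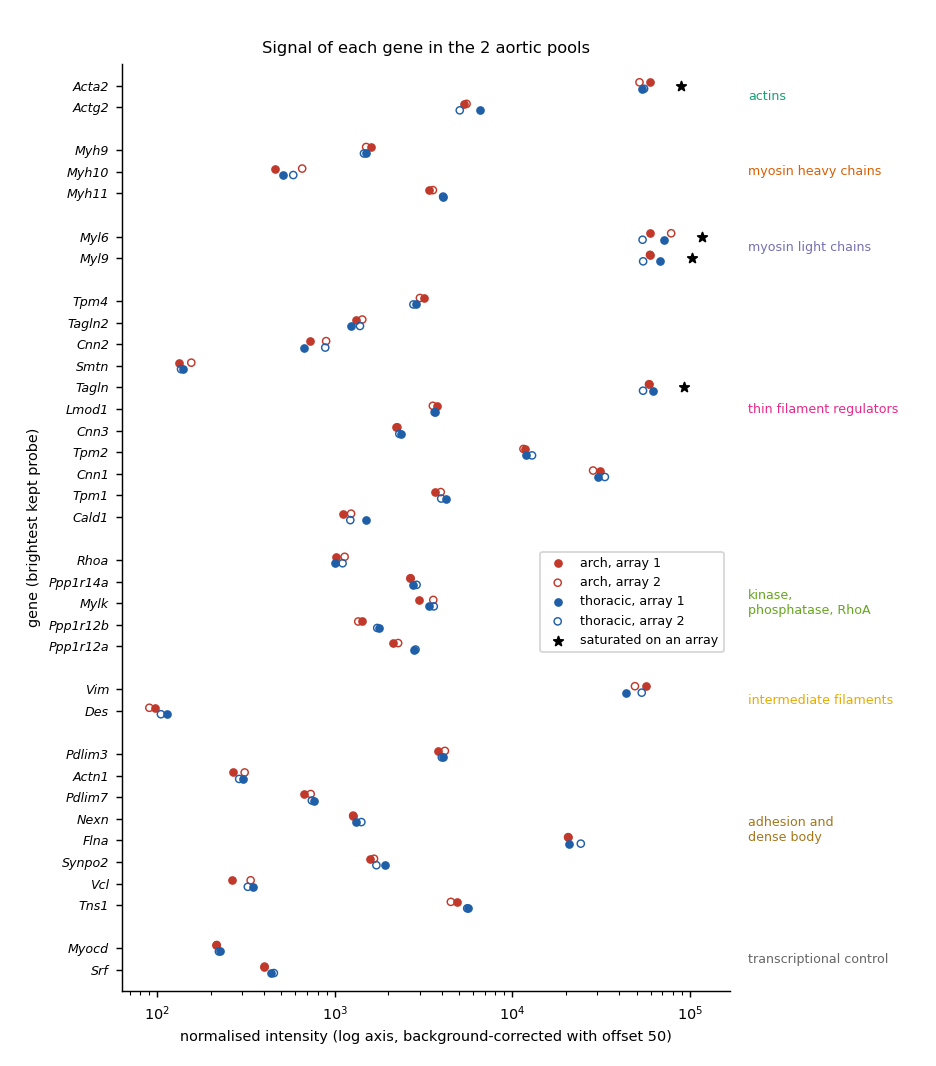
Normalised intensity of the brightest probe of 35 of the genes (log axis) in the arch pool (red) and the thoracic pool (blue) on array 1 (filled) and array 2 (open), with genes grouped by role and a star for probes saturated on an array. The points of a gene nearly coincide for most genes, while Ppp1r12a and Ppp1r12b show both arch points (1354 to 2272) to the left of their thoracic points (1733 to 2847).

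No member differed by as much as 1.5-fold. A gene was counted when each array on its own passed the fold in the same direction. By that rule 0 of the 37 genes exceeded 1.5-fold towards the arch, where 0.257% of all genes did, and 0 towards the thoracic aorta, where 0.229% did. At a smaller fold of 1.2 on each array, 2 of 37 were lower in the arch, both of them targeting subunits of myosin phosphatase (Ppp1r12a and Ppp1r12b), against 1.01% of all genes, and 0 were higher, against 1.52%. Both belonged to the 28 members in the brighter range, where 2.12% of the 2215 genes were lower by this rule and 3.07% higher. The ratios ran from −0.36 for Ppp1r12a to 0.13 for Tpm4, and 31 of the 37 were within 0.2 of 0. Their median was −0.08, beside 0.00 for all genes and 0.00 for the 2187 other genes at least as bright as the lower quartile of the members.

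The small differences leaned to the thoracic pool. Both arrays put 18 of the 37 genes below 0 (48.6%), where 26.5% of all genes were below 0 on both. Among the 28 brighter members 13 were (46.4%), against 29.1% of the 2215 genes in that range. Both arrays put 5 above 0 (13.5%), against 28.4% of all genes and 30.4% of the brighter ones, and for 14 the arrays had opposite signs, against 45.1%. For those 14 genes the distance of the arrays from their mean was larger than the mean itself, which with 2 arrays is the same condition. With each array centred on its median in place of the intensity-dependent normalisation, the members' median was −0.25, but the other bright genes also moved, to −0.17, and all genes to −0.04. Under that setting 25 of the 37 genes were below 0 on both arrays, against 47.2% of all genes, and 0 were above 0 on both, against 18.9%. At 1.2-fold 4 were lower (Ppp1r12a, Ppp1r12b, Myh11 and Synpo2), against 3.14%. The members' median lay −0.08 from that of the other bright genes under both of these settings, −0.06 from it with probe means, −0.14 on array 1 alone and −0.03 on array 2 alone, so that its size depends on the array. The size of a ratio near 0 therefore depends on the centring, and none of the 11 genes with a mean above 0 kept that sign when the arrays were median-centred.

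**Figure D2:**
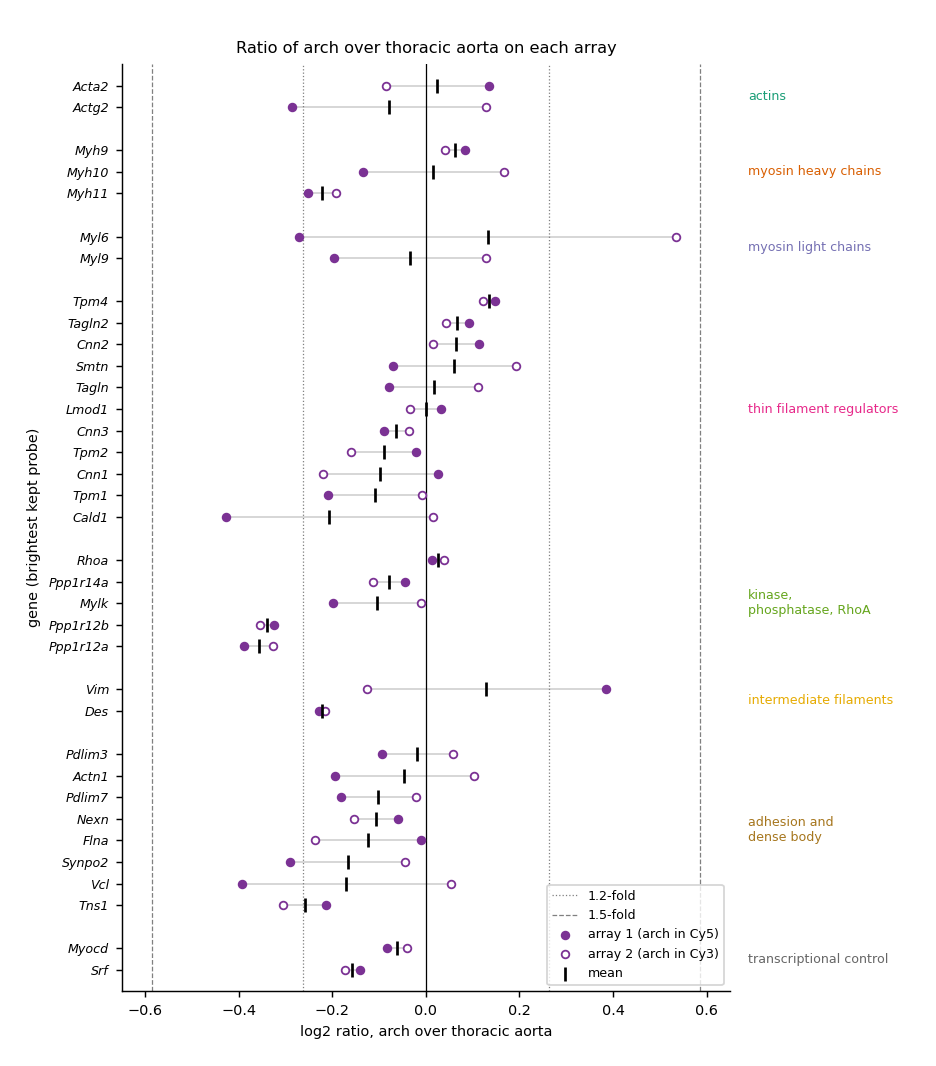
Log2 ratio of arch over thoracic aorta on array 1 (filled) and array 2 (open) for 35 of the genes, grouped by role, with the mean as a vertical tick and dotted and dashed lines at 1.2-fold and 1.5-fold. All ticks lie between −0.36 and 0.13, and Ppp1r12a and Ppp1r12b alone have both points beyond the left dotted line.

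Both members that control transcription were slightly lower in the arch on both arrays at their brightest probes, where 26.5% of all genes were below 0 on both. Srf encodes serum response factor, which binds the CArG box, a short A/T-rich element in the promoters of many contractile genes. Srf read 397 in the arch pool and 437 in the thoracic pool on array 1, and 402 and 453 on array 2. Both arch readings were below both thoracic readings, with a mean ratio of −0.16 ± 0.02 (1.11-fold lower in the arch). Myocd, the muscle-restricted coactivator that SRF recruits, read 213 and 226 on array 1 and 216 and 222 on array 2 in the arch and the thoracic aorta. Its ratio was −0.06 ± 0.02, and a dimmer Myocd probe, whose arrays had opposite signs, gave −0.01 ± 0.03.

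Promoters of 31 of the 37 genes were matched in RefSeq (build GRCm38.p6), with Nexn, Myocd, Myh11, Tagln and Actg2 among the others, and those holding the element are shown because it is the one SRF reads. A CArG box lay in the 250 bases before the annotated start of 5 of the 31 genes (16.1%), against 1.62% of all 27025 genes with a promoter in that table and 1.41% of those also measured here. The pattern of the box reads the same on both strands, though a single box need not. When 1 G or C was allowed among its A and T bases, 7 of the 31 genes held one (22.6%), against 9.78% of all genes; the seventh, Pdlim3, is not shown. These are matches of letters, not measured binding sites. The stretches around them follow, all upstream of the start and written 5′ to 3′ along the gene, with the boxes in capitals. Those of Srf, Vcl, Cnn2, Myl6 and Myl9 hold an exact box, Myl9 also holds 1 box with a G or C inside, and both boxes of Acta2 are of that relaxed kind. The Myl6 stretch belongs to 1 of its 2 annotated starts.
Srf (chr17:46556185-46556274, minus strand): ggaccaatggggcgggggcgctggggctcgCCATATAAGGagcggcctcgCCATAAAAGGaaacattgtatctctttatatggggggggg
Vcl (chr14:20929148-20929210, plus strand): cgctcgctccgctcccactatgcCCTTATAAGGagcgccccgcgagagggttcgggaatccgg
Cnn2 (chr10:79988514-79988583, plus strand): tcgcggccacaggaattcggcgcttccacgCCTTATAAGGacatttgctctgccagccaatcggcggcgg
Myl6 (chr10:128493020-128493089, minus strand): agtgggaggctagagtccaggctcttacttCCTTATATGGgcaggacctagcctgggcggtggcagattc
Myl9 (chr2:156775273-156775404, plus strand): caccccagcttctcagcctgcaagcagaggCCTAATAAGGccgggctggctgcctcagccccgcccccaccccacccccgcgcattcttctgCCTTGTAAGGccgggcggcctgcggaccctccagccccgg
Acta2 (chr19:34255374-34255487, minus strand): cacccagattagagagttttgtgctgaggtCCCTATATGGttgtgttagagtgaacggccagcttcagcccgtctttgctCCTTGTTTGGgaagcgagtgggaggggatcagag

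The boxes begin 82 and 62 bases before the start in Srf, 227 in Vcl, 56 in Cnn2, 50 in Myl6, 161 and 99 in Myl9 and 84 and 34 in Acta2. Srf (−0.16 ± 0.02) and Vcl (−0.17 ± 0.22) were below 0 on average, while Cnn2 measured 0.07 ± 0.05 (−0.10 with median centring). The brightest probes of Acta2, Myl6 and Myl9 were saturated, and the brightest unsaturated Acta2 probe gave −0.14 ± 0.16. The Ppp1r12a and Ppp1r12b promoters, whose genes had the lowest ratios, held no box of either kind in this window. Neither did that of Tpm4, which had the highest ratio, and only 7 of the 31 genes held a box of either kind.

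The actins showed no clear difference at their brightest probes, whose arrays disagreed in sign. Acta2, the smooth muscle α-actin and the most used marker of the cell type, read 59245 in the arch pool and 53993 in the thoracic pool on array 1, and 51964 and 55163 on array 2, at a probe saturated in the red channel of both arrays. The ratio there was 0.02 ± 0.11. Another 4 Acta2 probes were not saturated and gave means from −0.19 to −0.07, the brightest of them −0.14 ± 0.16 (−0.30 on array 1 and 0.01 on array 2). A nearly as bright one gave −0.15 ± 0.09 and the dimmest −0.19 ± 0.04, both below 0 on both arrays. Actg2, the γ-actin better known from visceral smooth muscle, read 5363 against 6543 on array 1 and 5521 against 5052 on array 2. It was lower in the arch on the first array and higher on the second, with a ratio of −0.08 ± 0.21.

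Of the myosin heavy chains, the smooth muscle one had the lowest ratio. Myh11, whose protein is largely confined to smooth muscle, read 3392 in the arch pool and 4041 in the thoracic pool on array 1, and 3566 and 4071 on array 2. Both arch values were below both thoracic values, at 1.17-fold lower in the arch (−0.22 ± 0.03). The value was −0.23 ± 0.03 with the scanner software's own ratios and −0.39 with median centring. Myh9, a nonmuscle myosin of most cells, read 1595 against 1505 on array 1 and 1501 against 1458 on array 2. The ratio was 0.06 ± 0.02 (−0.10 with median centring) and 0.01 ± 0.04 at a dimmer probe. Myh10, the nonmuscle myosin also called the embryonic smooth muscle myosin, read 463 against 508 on array 1 and 655 against 583 on array 2, so that the arrays disagreed in sign (0.02 ± 0.15). One of its dimmer probes, designed to another transcript record, gave 0.29 ± 0.01 and was 1.22-fold higher in the arch, and the other gave −0.04 ± 0.05. The 0.29 probe alone among the 75 usable member probes passed 1.2-fold towards the arch (1.33%), against 1.25% of all usable probes.

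Saturation left the light chains without a usable ratio. Myl9, the regulatory light chain that the kinase phosphorylates, had a single probe, saturated in the red channel of both arrays, which read 59423 and 68090 on array 1 and 59551 and 54473 on array 2 in the arch and the thoracic aorta. Myl6, the essential light chain, was saturated at both of its probes. Its brightest probe read 59387 against 71642 on array 1 and 78357 against 54087 on array 2, so that the region in red read lower each time (−0.27 and 0.53, the widest gap of the 37 genes). Both genes were therefore left without a value when saturated probes were set aside, and the median of the remaining 35 genes was −0.10.

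The 11 regulators of the thin filament lay on both sides of 0, with a median of 0.00, or −0.06 with the unsaturated Tagln probe in place of the saturated one. Tpm4, a tropomyosin of low molecular weight found in many cell types, was highest in the arch, with 3183 against 2875 on array 1 and 3013 against 2769 on array 2. Both arch values exceeded both thoracic values, and the ratio was 0.13 ± 0.01, but −0.03 with median centring. The muscle tropomyosins were on the other side: Tpm1 measured −0.11 ± 0.10 and Tpm2 −0.09 ± 0.07, and the other Tpm2 probe gave −0.09 ± 0.02. Tpm1 is spliced into many isoforms, and a dim probe from another transcript record gave 0.25 ± 0.03 (0.63 with the scanner ratios), opposite in sign to the −0.13 ± 0.18 and −0.11 ± 0.10 of its brighter probes. 

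Among the calponins and transgelins, the smooth muscle members had lower mean ratios than some of their more widely expressed relatives. Cnn1, the smooth muscle calponin, read 31008 and 30453 on array 1 and 28466 and 33173 on array 2 in the arch and the thoracic aorta. The arrays had opposite signs, with a ratio of −0.10 ± 0.12. Cnn2 read 723 against 668 on array 1 and 893 against 883 on array 2 (0.07 ± 0.05, or −0.10 with median centring), and Cnn3, the acidic calponin, measured −0.06 ± 0.03. These relatives are found in many cell types. Tagln, or SM22α, an early marker of smooth muscle differentiation, read 58667 against 61953 on array 1 and 58791 against 54411 on array 2 at a saturated probe (0.02 ± 0.10), and its unsaturated probe gave −0.10 ± 0.10. Tagln2 read 1321 against 1240 on array 1 and 1427 against 1385 on array 2 (0.07 ± 0.02, or −0.10 with median centring). Within arrays, the Cnn1 ratio differed from that of Cnn2 by −0.09 and −0.24 (mean −0.16 ± 0.07). That of the unsaturated Tagln probe differed from Tagln2 by −0.29 and −0.05 (−0.17 ± 0.12). At these probes each difference had 1 sign on both arrays under the intensity-dependent normalisation. At its saturated probe Tagln gave −0.08 on array 1 and 0.11 on array 2, where Tagln2 gave 0.09 and 0.04. Tagln was then above Tagln2 on array 2, so this sign depends on the probe. With median centring Cnn1 gave 0.11 on array 1 and −0.65 on array 2, and Cnn2 gave 0.01 and −0.22. Cnn1 was then above Cnn2 on array 1, so this sign depends on the centring. Against Cnn3 the Cnn1 ratio differed by −0.03 ± 0.15, within the error of the arrays.

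Cald1 encodes caldesmon, which binds actin and inhibits its interaction with myosin. At the brightest probe it read 1112 in the arch pool and 1495 in the thoracic pool on array 1, but 1234 and 1222 on array 2, which gave −0.21 ± 0.22. Its other probes were lower in the arch on both arrays. The first read 629 against 769 and 586 against 804 (−0.37 ± 0.08), and the second 199 against 266 and 186 against 249 (−0.42 ± 0.00). As the mean of its 3 probes Cald1 measured −0.33, the lowest of the 37 genes by that measure, so that its rank depends on the probe. Lmod1, leiomodin, which nucleates actin filaments in smooth muscle, was equal in the pools (0.00 ± 0.03). Smtn, smoothelin, a marker of fully contractile cells, was dim, with 133 and 140 on array 1 and 155 and 136 on array 2, and its arrays disagreed (0.06 ± 0.13).

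**Figure D3:**
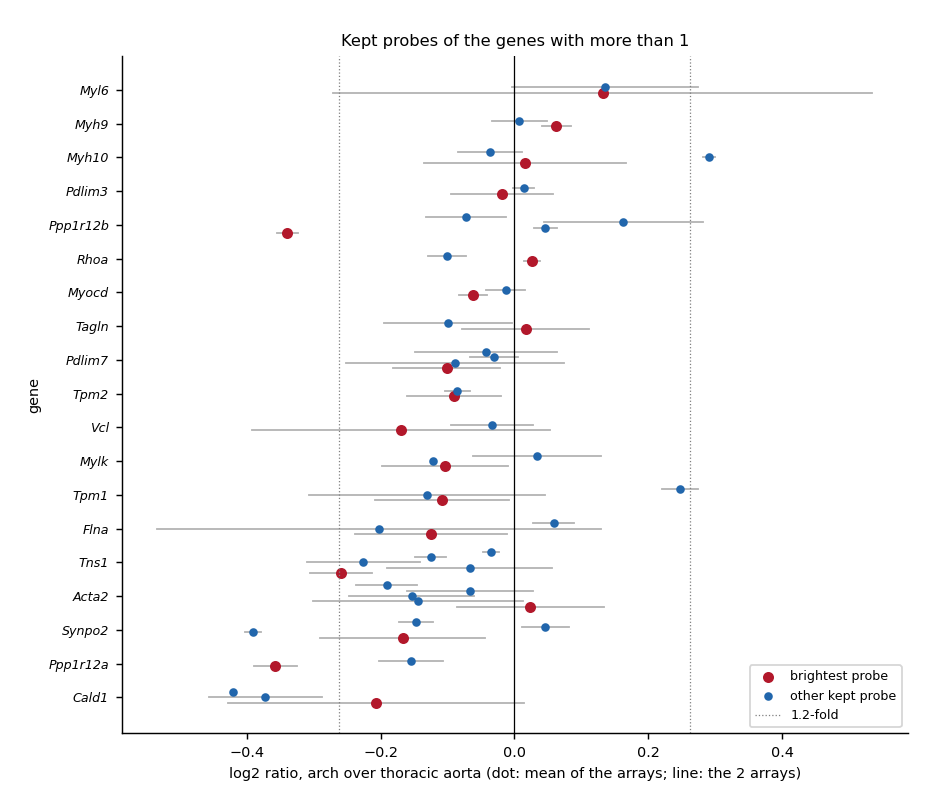
Log2 ratio of each usable probe of genes with more than 1 such probe, with a dot at the mean of the arrays, a line joining the arrays, the brightest probe in red and dotted lines at 1.2-fold. All probes of Ppp1r12a and Cald1 have means below −0.15, while those of Ppp1r12b run from −0.34 to 0.16.

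The lowest ratios of the whole group fell in the enzymes that set light chain phosphorylation. Of these 7 genes, 6 were below 0 on both arrays (85.7%, against 26.5% of all genes), and their median was −0.10. Ppp1r12a encodes MYPT1, the subunit that targets the phosphatase to myosin, and it read 2132 in the arch pool and 2793 in the thoracic pool on array 1, and 2272 and 2847 on array 2. Both arch values were well under both thoracic values, at 1.28-fold lower (−0.36 ± 0.03), and a dimmer probe gave −0.15 ± 0.05. Ppp1r12b, its relative MYPT2, read 1417 against 1774 on array 1 and 1354 against 1733 on array 2, at 1.27-fold lower (−0.34 ± 0.02). The scanner software's ratios gave −0.37 ± 0.03 for Ppp1r12a and −0.35 ± 0.02 for Ppp1r12b, and median centring gave −0.53 and −0.51.

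The 4 probes of Ppp1r12b disagreed. Its dimmer probes gave 0.05 ± 0.02, 0.16 ± 0.12 and −0.07 ± 0.06, which spread them over 0.50 on the log2 scale, the widest spread of the 20 genes with more than 1 usable probe. The probe at 0.16 and the brightest probe carry the same transcript record in the array files. As the mean of its probes Ppp1r12b measured −0.05 and was no longer at least 1.2-fold lower on each array, while Ppp1r12a measured −0.26 and was not either; under that setting the 1 gene that met the 1.2-fold rule was Cald1. Which genes pass so small a fold therefore depends on the choice of probe.

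The kinases and their regulators differed less. Mylk, the myosin light chain kinase, measured −0.10 ± 0.09, with its second probe at −0.12 ± 0.00 and a dim one at 0.03 ± 0.10. Ppp1r14a, or CPI-17, a phosphatase inhibitor of smooth muscle, measured −0.08 ± 0.03. Rhoa, a small GTPase that promotes contraction, read 1010 against 1001 on array 1 and 1135 against 1106 on array 2. It was the exception to the direction, at 0.03 ± 0.01 at its brightest probe (−0.14 with median centring) and −0.10 ± 0.03 at the other.

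**Figure D4:**
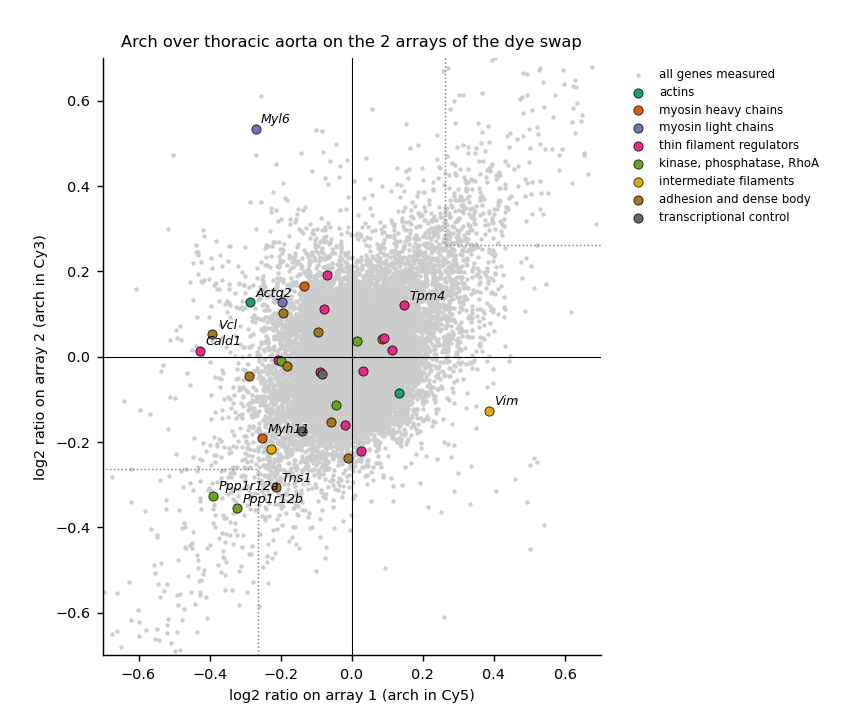
Log2 ratio on array 1 (horizontal) against array 2 (vertical) for all genes within 0.7 of 0 (grey) and for 35 members coloured by role, with dotted corners where both arrays pass 1.2-fold. Ppp1r12a and Ppp1r12b lie in the lower left corner, while Myl6, Vim, Vcl, Cald1 and Actg2 lie in the quadrants where the arrays disagree in sign.

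The intermediate filaments differed from each other but not firmly. Des encodes desmin, the intermediate filament of muscle, and it was dim, at 96.5 against 113 on array 1 and 90.2 against 105 on array 2. Both arch values were below both thoracic values (−0.22 ± 0.01). Since the offset shrinks dim genes, the value was −0.45 ± 0.01 with an offset of 0 and −0.50 ± 0.01 with the scanner ratios, at which desmin was the lowest of the 37 genes and one of 3 members at least 1.2-fold lower (2.76% of all genes under those ratios). Vim, or vimentin, found in mesenchymal cells in general, read 56735 against 43444 on array 1 but 48999 against 53502 on array 2, so that its mean of 0.13 ± 0.26 gives no direction. The Vim probe was not flagged as saturated. Its raw red signals, 61618 (arch, array 1) and 64739 (thoracic, array 2), were near the 65299 of the saturated Tagln probe.

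All 8 genes of adhesions and dense bodies, where actin filaments are anchored, had a mean below 0, as had 48.5% of all genes, and their median was −0.12. On both arrays 5 of the 8 were below 0 (62.5%, against 26.5% of all genes). Tns1, tensin, which ties actin to integrins, was lowest, with 4866 against 5638 on array 1 and 4501 against 5564 on array 2. Both arch values were below both thoracic values (−0.26 ± 0.05), and array 1 alone kept it from the 1.2-fold rule. Its 4 dimmer probes had means between −0.23 and −0.04. Synpo2, synaptopodin 2, an actin-bundling protein of the dense bodies, read 1569 against 1919 on array 1 and 1662 against 1714 on array 2 at the brightest probe, which carries an older name in the files (−0.17 ± 0.12). Another Synpo2 probe read 1.31-fold lower in the arch (−0.39 ± 0.01), and the dim ones gave −0.15 ± 0.03 and 0.05 ± 0.04.

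The ratios of the other anchoring proteins ran from −0.17 to −0.02. Vcl, vinculin, read 264 against 346 on array 1 and 336 against 323 on array 2, and its −0.17 ± 0.22 is within the distance of the arrays. Flna, filamin A, which crosslinks actin, read 20610 against 20773 on array 1 and 20587 against 24278 on array 2 (−0.12 ± 0.11), and its other usable probes gave −0.20 ± 0.33 and 0.06 ± 0.03. Nexn, nexilin, measured −0.11 ± 0.05 and Pdlim7 −0.10 ± 0.08. Actn1, α-actinin, measured −0.05 ± 0.15 and Pdlim3 −0.02 ± 0.08, each with arrays of opposite sign.

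By probe, 5 of the 75 usable member probes were at least 1.2-fold lower in the arch on each array (6.67%), against 0.868% of all usable probes. They belonged to Cald1 (2 probes), Ppp1r12a, Ppp1r12b and Synpo2. Probes of 1 gene may read the same transcripts or different ones, and they are not independent. Of the 20 genes with more than 1 usable probe, 10 had probes of both signs, 3 (Ppp1r12a and Tpm2 among them) had every probe below 0 on both arrays, and 0 had every probe above 0 on both.

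Other genes of contraction and the cytoskeleton, listed by function and not by value, had a median near 0 but also leaned below it in sign. Of 46 such genes 42 were measured, from the cytoplasmic actin Actb to calmodulins, talin, zyxin and dystrophin. Their median was 0.01, 17 were below 0 on both arrays (40.5%, against 26.5% of all genes and 48.6% of the members) and 12 above (28.6%, against 28.4% of all genes), and with median centring the median was −0.15. By the 1.2-fold rule 0 were lower, against 1.01% of all genes, and 1 was higher, against 1.52%. That gene was Pln, phospholamban, the inhibitor of the calcium pump, at 0.52 ± 0.02. Pln was dim, at 91.1 against 64.6 on array 1 and 97.1 against 67.1 on array 2, with the offset included. All of these Pln readings were below the median intensity of all genes (129).

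Markers of some other cell types differed between the pools. The 7 adipocyte markers were all above 0 on both arrays, against 28.4% of all genes, with a median of 0.66. Their summed intensity was 47650 in the arch against 34494 in the thoracic aorta on array 1 and 45970 against 35527 on array 2. Such sums follow their brightest probes: Fabp4 made up 48.5% of this one in the arch on array 1, Lyz2 90.4% of the macrophage sum and Msln 60.4% of the mesothelial sum. The 4 mesothelial markers were above 0 on both arrays as well, with a median of 0.48 and sums of 1038 against 730 and 1097 against 761. All 7 macrophage markers were below 0 on both arrays, against 26.5% of all genes, with a median of −0.20 and sums of 22517 against 25414 and 20429 against 26961. By the 1.2-fold rule 1 of the 7 was lower, against 1.01% of all genes, and the smallest difference was that of Csf1r (−0.02 ± 0.02). By the same rule 6 adipocyte, 3 mesothelial, 3 cardiomyocyte, 2 fibroblast and 1 cartilage markers were higher, against 1.52% of all genes. A fibroblast and a pericyte marker were lower. Cardiomyocyte markers had a median of 0.26 over the 8 measured, led by Myl7 (2.33 ± 0.01) and Tnnt2 (1.59 ± 0.03), while the cardiac actin Actc1 measured −0.05 ± 0.11. The endothelial markers, whose cells the detergent was meant to remove, summed to 624 against 559 and 647 against 608. They were dim, and each reading in these sums includes the offset of 50. On array 1 Pecam1 read 68.5 against 66.8, and the brightest, Vwf, read 141 against 116. Fibroblast, endothelial, skeletal muscle, cartilage and pericyte lists had medians of 0.05, 0.08, −0.01, 0.20 and 0.01. The 7 smooth muscle markers, all of them members and all measured, had a median of 0.00, or −0.10 with the unsaturated probes of Acta2 and Tagln, with summed intensities of 156408 against 154471 on array 1 and 146723 against 150825 on array 2, sums that rest on the saturated Acta2 and Tagln probes. The part of these other cells in the members' ratios was not tested.

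**Figure D5:**
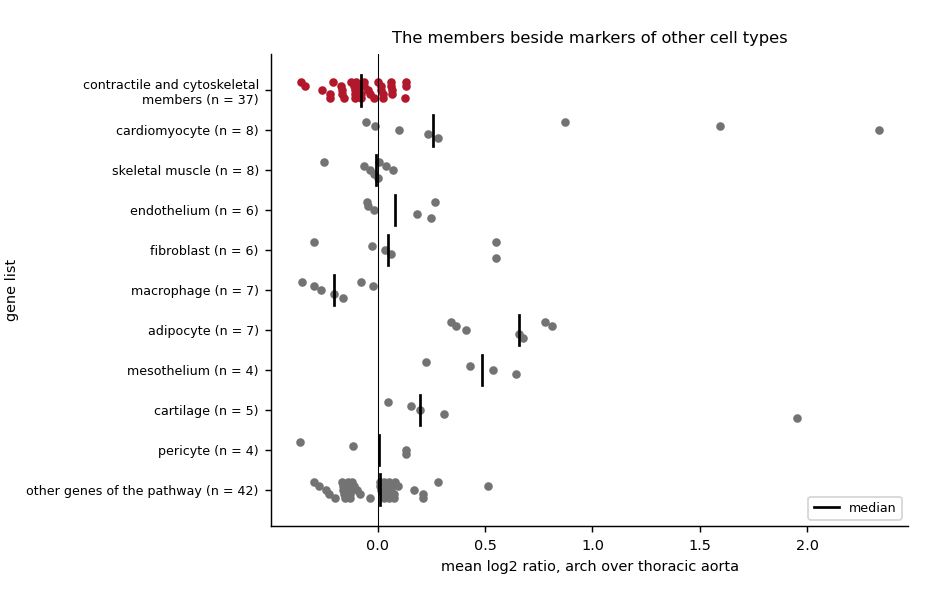
Mean log2 ratio of arch over thoracic aorta for the 37 members (red) and for the measured genes of lists marking other cell types or further pathway genes (grey), with a black bar at each median. The members span −0.36 to 0.13 around a median of −0.08, while the adipocyte markers have a median of 0.66 and the macrophage markers one of −0.20.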

How the data were processed

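The files are Agilent Feature Extraction 9.1.1.1 output, per the submitters' processing notes, and give each spot's mean signal and local background as an intensity per dye, per the file headers. They also hold the log10 ratio of the processed signals as deposited by the authors. The deposited series value table, also a log10 ratio, equalled it for 99.9% of gene spots once both had the arch on top (tolerance 1e-05), which is how its unstated scale and direction were found; its medians are 0. Genome coordinates are those of the RefSeq promoter table only.

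Background was corrected with normexp (offset 50) and ratios normalised by loess within each array, with limma 3.58.1 in R 4.3.3 and control spots at weight 0. Outlier spots (20 and 4) were left out, saturated spots kept, and array 2 was turned to arch over thoracic aorta. A probe was usable if 1 region or more stood well above background on each array (30520 of 41150), and a gene took its brightest usable probe. Names came from RefSeq (GRCm38.p6) by accession, symbol or synonym; 3 member probes (Synpo2 and Tns1) were matched by synonym, and 3 member probes were not usable. Probe sequences were not used here, so probes of near-identical relatives may share signal.

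With 1 pool per region no test was made. Calls needed 1.5-fold (or 1.2-fold) in 1 direction on each array. The procedure was tested on simulated data with changes of 2-fold or more, scored by the 1.5-fold rule. Smaller ratios, the 1.2-fold rule and saturation were not covered by it. All 37 members entered the counts, and the values of 2 are not reported here; those given in full were the 8 with the highest and the 8 with the lowest ratio, any whose probes differed by over 0.5, any past 1.2-fold, and Acta2, Tagln, Cnn1, Myh11, Smtn, Myocd and Srf. The members, lists and rules were chosen with earlier results of these data known. Alternatives were an offset of 0, the scanner ratios, the value table, median centring, other probe filters, the mean over probes, other folds and each array alone.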

Additional observations from a re-analysis of the deposited data

How the results depend on the processing

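No paired analysis was possible because both arrays hold the same 2 pools. By the 1.5-fold rule 0 members were called under all alternatives, which included each array alone, while 1.2-fold on each array gave 2 and 1.3-fold gave 0. Over all genes 104 were called, against 221 with an offset of 0, 280 with the scanner ratios and 280 with the value table, 540 at 1.2-fold, 246 at 1.3-fold and 24 at 2-fold; median centring gave 28 higher and 75 lower in place of 55 and 49. The members' median of −0.08 was −0.25 with median centring and between −0.13 and −0.03 on single arrays. It stayed between −0.10 and −0.06 under the other alternatives, of which the brightest unsaturated probe was chosen after seeing the data, as was the count of signs on both arrays. Of 26 genes with a mean below 0, 25 kept that sign under the 7 alternatives that use both arrays, the unsaturated probe aside. Tpm1 did not (0.00 as the mean of its probes). Most of these alternatives could hardly turn a sign below 0, so the count says little about stability. The other probe filters left the members' median at −0.08, and the value table nearly equals the scanner ratios. Median centring put the means of all 37 genes below 0. Signal limits Des and Smtn, which are dim, and saturation limits Acta2, Tagln, Myl6 and Myl9, with Vim close to it.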
